A study of Caenorhabditis elegans with 2 samples.

Results

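The cytosolic ribosomal protein genes of Caenorhabditis elegans were examined for regions enriched in a ChIP-seq experiment on ALR-1, the nematode member of the Aristaless homeodomain proteins. The genes were taken by name: every protein-coding gene whose symbol in the WBcel235 annotation begins with rpl- or rps- and a number, which gave 47 genes of the large subunit and 31 of the small subunit, together 78 of 19973 protein-coding genes on the nuclear chromosomes. Each was given the best-ranked region whose summit lay in the gene or within 1500 bp upstream. The rule also named rpa-0, rpa-1 and rpa-2. No gene carries the symbol rpa-0 in that annotation, and rpa-1 and rpa-2, which bring the genes found by the rule to 80, are annotated in RefSeq as subunits of replication protein A, a DNA-binding complex and no part of the ribosome. Their values are given apart and enter no count. The chromatin came from whole, starved L1 larvae of both sexes, 6 hours of age, of strain OP362, which carries the unc-119(tm4063) mutation and the integrated transgene wgIs362, a fusion of ALR-1 to a C-terminal GFP-FLAG tag, and the sample descriptions give an antibody to GFP for the immunoprecipitation, while the antibody field of the labels reads alr-1, so whether only the tagged or any ALR-1 was captured is not settled by the labels. There was 1 group of 2 biological replicates, so the replicates could be compared but no condition with another, and the signal cannot be assigned to a cell type because whole animals were used. The labels do not say which promoter drives the transgene or whether the native alr-1 locus is intact.

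Ribosomal proteins are assembled with ribosomal RNA in the nucleolus into a small subunit, which decodes messenger RNA, and a large subunit, which forms peptide bonds. Their genes are short, are among the most strongly transcribed of the genome, and some carry genes for small nucleolar RNAs (snoRNAs) in their introns. ALR-1 is known in this animal for roles in touch receptor neurons, GABAergic motor neurons and amphid sensory structures, and homeodomains of its class bind sites built on the core TAAT, the palindrome TAATTA among them.

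The bases under 8 of the strong regions are printed first. Each window below is 101 bases centred on the summit of the gene's best region in the list from the pooled replicates, read 5′ to 3′ on the gene's own strand from the RefSeq WBcel235 assembly, the same build as the ce11 coordinates of the files. Positions below count from the 5′ end, upstream ones with a minus sign. Capitals mark TAAT or its reverse complement ATTA. They are the 8 windows of best rank, on chromosomes II, III and IV, that touch no annotated untranslated sequence.
rpl-3, chrIII:3868094-3868194, plus strand: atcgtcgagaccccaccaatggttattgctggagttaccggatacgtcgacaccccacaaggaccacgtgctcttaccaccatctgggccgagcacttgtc
rpl-21, chrIII:8130031-8130131, minus strand: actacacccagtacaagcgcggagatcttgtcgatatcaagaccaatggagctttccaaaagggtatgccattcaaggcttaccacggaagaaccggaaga
rpl-12, chrIV:13240157-13240257, minus strand: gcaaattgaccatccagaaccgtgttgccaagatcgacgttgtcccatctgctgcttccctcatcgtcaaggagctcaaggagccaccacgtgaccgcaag
rpl-10, chrII:8143966-8144066, plus strand: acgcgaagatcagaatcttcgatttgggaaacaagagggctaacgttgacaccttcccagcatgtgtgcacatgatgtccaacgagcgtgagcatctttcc
rps-4, chrIV:7084496-7084596, minus strand: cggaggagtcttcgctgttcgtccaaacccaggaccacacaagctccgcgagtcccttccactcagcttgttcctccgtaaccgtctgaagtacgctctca
rpl-43, chrII:14155102-14155202, plus strand: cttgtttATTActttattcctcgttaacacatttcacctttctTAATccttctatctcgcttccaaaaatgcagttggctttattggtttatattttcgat
rps-29, chrIII:794338-794438, plus strand: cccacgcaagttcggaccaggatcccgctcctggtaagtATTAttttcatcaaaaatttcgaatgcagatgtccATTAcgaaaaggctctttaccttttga
rps-21, chrIII:7189258-7189358, minus strand: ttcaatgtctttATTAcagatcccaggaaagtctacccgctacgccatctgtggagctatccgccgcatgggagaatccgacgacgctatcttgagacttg
The first 5 windows lie in coding exons, at 48.5% to 57.4% GC, and hold no TAAT. The window before rpl-43, the only one of the 8 outside the gene, is the poorest in GC at 31.7% and holds 2 matches. The windows of rps-29, with its summit in an intron, and rps-21, with its summit in a coding exon, hold 2 and 1, and none of the 8 holds TAATTA.

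Of the 78 genes, 9 (11.5%, exact 95% binomial interval 5.41 to 20.8) had a peak that passed the authors' irreproducible discovery rate (IDR) threshold in the gene or within 1500 bp upstream of its 5′ end. The same rule called 1.25% of all protein-coding genes. A less strict limit on the same ranking was a summit among the 1000 strongest of the 30000 regions of the pooled list. With it the count was 18 genes (23.1%, interval 14.3 to 34), against 5.65% of protein-coding genes. A summit of any rank was present for 61 genes (78.2%, interval 67.4 to 86.8), against 68.8% of all genes, a value inside that interval. The ranks of the regions therefore set these genes apart from the average gene more than their presence did. The median best rank, with genes without a summit placed after the last region, was 5320.5 for the ribosomal protein genes and 16798.0 for all genes. Ranks are by the authors' signal value, 1 being the strongest, and compare regions within a list only. These shares are descriptions, since the genes were chosen with earlier results of these data known.

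These genes are short, with a median length of 753.5 bp against 2027.0 bp for all protein-coding genes, so less sequence was searched in each. Per kilobase of gene and upstream sequence, the pooled list had 0.637 summits in the ribosomal protein genes and 0.32 in all genes. Among the 1000 strongest regions the densities were 0.14 and 0.0132 per kilobase.

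**Figure D1:**
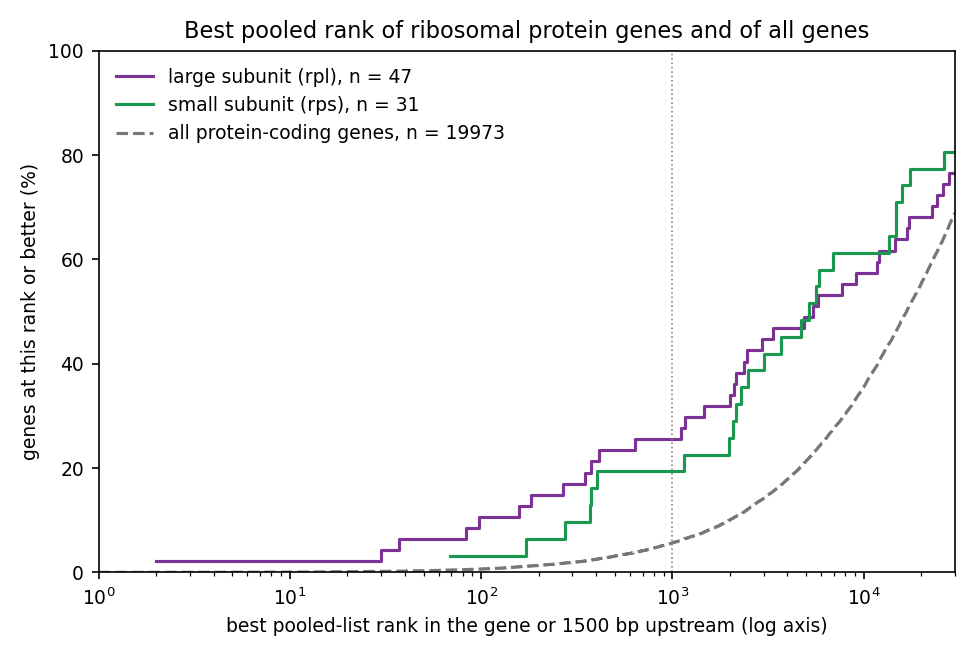
Share of genes (vertical axis, percent) whose best pooled-list region in the gene or 1500 bp upstream has the rank on the horizontal log axis or a better one, for 47 large-subunit, 31 small-subunit and all 19973 protein-coding genes; the dotted line marks rank 1000. At that rank the curves stand at 25.5%, 19.4% and 5.65%.

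The 9 genes with an IDR peak were rpl-31, rpl-7, rpl-3, rps-17, rpl-21, rpl-12, rpl-1, rps-6 and rpl-28, of which 7 belong to the large subunit. The strongest, at rpl-31 (WBGene00004445), had pooled rank 2 and signal 174.7, with its summit in an intron 305 bp from the 5′ end. RPL-31 lies at the rim of the tunnel through which the new peptide leaves the ribosome. The region ranked 10 in replicate 1 (signal 78.1) and 4 in replicate 2 (signal 93.0), so it was among the strongest of both lists.

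At rpl-3 (WBGene00004414), whose product reaches the peptidyl transferase centre, the best region was in a coding exon 290 bp from the 5′ end, on chromosome III at 3867962 to 3868325, and its window is the first printed above. Its rank was 37 with the replicates pooled, 52 for replicate 1 and 23 for replicate 2. The rps-17 region (WBGene00004486), in a coding exon 337 bp from the 5′ end, stood at 69, 273 and 192 in the same order of lists. That of rpl-12 (WBGene00004424), which encodes a protein at the base of the stalk where translation factors dock, stood at 98, 404 and 187. For these 3 genes the region was within the top 1000 of each replicate.

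The rpl-7 region (WBGene00004418) differed in place. Its summit lay at -705 bp, upstream of rpl-7 and between protein-coding genes and only 276 bp from the 5′ end of rab-11.1, which encodes a small GTPase of vesicle traffic. It had pooled rank 30 and stood at 312 in replicate 1 and 20 in replicate 2. It was the only best region among the 18 genes in the top 1000 that lay nearer to the 5′ end of another protein-coding gene.

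The other IDR peaks were uneven between replicates. At rpl-21 (WBGene00004433) the region in a coding exon 146 bp from the 5′ end, with pooled rank 83, stood at 33 in replicate 1 and 1389 in replicate 2. At rpl-1 (WBGene00004412), which encodes the protein of the mobile stalk beside the exit site for transfer RNA, the region of pooled rank 158 stood at 2418 in replicate 1 and 161 in replicate 2. At rps-6 (WBGene00004475), whose product is a phosphorylation target of TOR signalling, the region of pooled rank 172 stood at 5330 and 158. The rpl-28 region (WBGene00004442), at -5 bp, was the weakest of the IDR peaks by pooled signal (108.2), and stood at 946 and 134. Its summit was at -8 bp in replicate 1 and 18 bp inside the gene in replicate 2. Replicate 2 thus ranked the regions of rpl-1, rps-6 and rpl-28 higher, and replicate 1 that of rpl-21. An annotated non-coding RNA gene, Y71F9AL.19, lay within 200 bp of the rpl-1 summit.

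**Figure D2:**
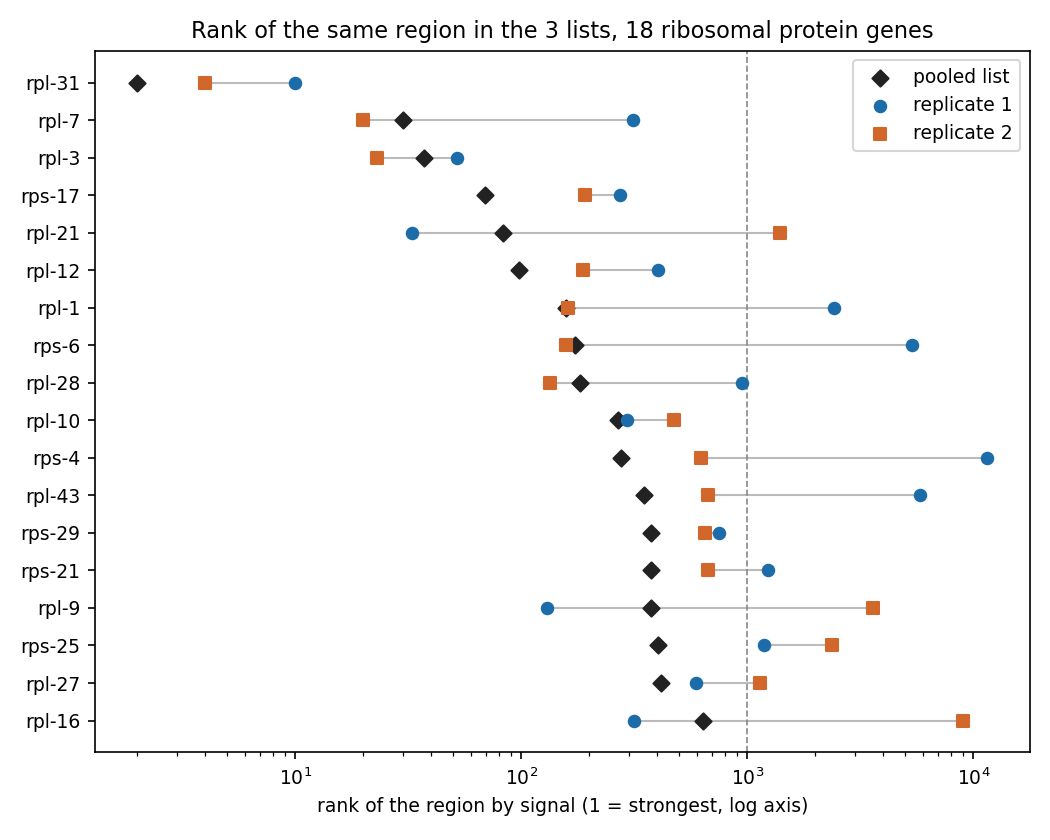
Rank of the same region (summits within 200 bp) in the pooled list, replicate 1 and replicate 2, on a log axis, for the 18 ribosomal protein genes with a pooled region in the top 1000; grey lines join the replicates and the dashed line marks rank 1000. For 8 of the 18 both replicate marks are left of the line.

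A further 9 genes reached the pooled top 1000 without an IDR peak. Those of the large subunit were rpl-10 (rank 267), rpl-43 (348), rpl-9 (375), rpl-27 (416) and rpl-16 (639). RPL-10 joins the subunit late in its assembly and shapes the peptidyl transferase centre. Those of the small subunit were rps-4 (275), rps-29 (373), rps-21 (374) and rps-25 (402). RPS-29 is a zinc-binding protein of the subunit head, and RPS-25 is needed for initiation at viral internal ribosome entry sites in human and yeast cells. The summit of rpl-43 lay at -142 bp and that of rpl-27 at -381 bp, inside the neighbouring gene C53H9.2. The remaining 7 lay inside the gene, from 34 bp (rps-25) to 323 bp (rps-21) from the 5′ end. The next best gene after rpl-16, at rank 639, was rpl-17 at rank 1112, and the pooled signal at rank 1000 was 87.9, against 93.4 for rpl-16 and 86.6 for rpl-17.

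Large and small subunit genes could not be told apart by these counts. An IDR peak was present for 7 of 47 large-subunit genes (14.9%, exact interval 6.2 to 28.3) and 2 of 31 small-subunit genes (6.45%, interval 0.791 to 21.4). A pooled top 1000 region was present for 12 large-subunit genes (25.5%, interval 13.9 to 40.3) and 6 small-subunit genes (19.4%, interval 7.45 to 37.5). The difference of 6.18 percentage points in the second pair became -0.206 when only the gene itself was searched, -2.47 with 3000 bp upstream and -1.37 in the list of replicate 2. Median best ranks were 5434.0 for the large and 5207.0 for the small subunit. All intervals overlapped and the differences were not tested.

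The place of the top regions was also counted by subunit. All 6 small-subunit genes in the pooled top 1000 had their best summit inside the gene, as did 8 of the 12 large-subunit genes (66.7%, interval 34.9 to 90.1) and 64.4% of all genes with a top 1000 region. The interval for the small subunit, which begins at 54.1%, overlaps that of the large. Among the large-subunit genes counted as upstream, rpl-28 had its summit at -5 bp, and inside the gene in replicate 2. No pooled top 1000 summit lay in the 1500 bp upstream of any small-subunit gene, in replicate 2 there was 1, and 8 pooled ones lay upstream of large-subunit genes. Since 4 large-subunit genes held more than 1 such summit and the numbers are small, this is a description of these regions and was not tested.

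Summits were denser inside the genes than upstream. In the pooled list 60 summits lay in 61.9 kb of gene sequence, or 0.969 per kilobase, and 54 in 117.0 kb of upstream sequence, or 0.462 per kilobase, a ratio of 2.1. Over all protein-coding genes the ratio was 1.05 (0.324 against 0.31 per kilobase). Among the 1000 strongest regions the ratio was 4.01 for ribosomal protein genes, from 17 summits inside and 8 upstream, and 0.868 for all genes. These ratios cover unlike stretches. Of the 64439.4 kb in all genes, 45848.1 kb lay beyond 1000 bp from the 5′ end, at 0.0106 top 1000 summits per kilobase. Of the 61.9 kb in ribosomal protein genes, 3.98 kb did. The replicates gave the same order separately. For top 1000 regions the ratio was 5.29 in replicate 1 and 3.78 in replicate 2, against 0.984 and 0.851 over all genes. Counted by gene, 15 of 78 (19.2%, interval 11.2 to 29.7) had a top 1000 summit inside the gene, against 3.72% of all genes. Taken over genes with a pooled summit of any rank, the best summit was inside the gene for 39 of 61 (63.9%), near the 61.4% of all genes, whose bodies are longer.

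Summits of any rank were dense from the 5′ end inward and sparse just before it. The first 250 bp held 1.44 pooled summits per kilobase and the next 250 bp 0.88, against 0.36 and 0.381 over all protein-coding genes. The 500 bp just upstream of the 5′ end were the poorest stretch of those searched, with 8 summits or 0.205 per kilobase. There the density was below that of all genes, 0.265. Over all genes this stretch was also the poorest, the others lying between 0.316 and 0.381. For the top 1000 summits of the ribosomal protein genes it was not the poorest. There were 3 in it, or 0.0769 per kilobase, the same as in the stretch farthest upstream and above the 0.00871 of all genes. In each of the next 500 bp stretches farther upstream the density of summits of any rank was 0.59, against 0.348 and 0.318 over all genes. Of all 54 upstream summits, 42 lay inside another protein-coding gene, a share that was not counted over all genes. Some summits were assigned to 2 of these genes, so the 114 inside and upstream were 111 distinct ones. Both replicates had the same low stretch, with 0.256 and 0.154 summits of any rank per kilobase in the 500 bp before the 5′ end and 1.38 in each over the first 250 bp of the gene. The best summits of the 14 top 1000 genes with an internal one lay 34 to 444 bp from the 5′ end, with a median of 216.0 bp. Between 500 and 1000 bp into the gene the density was 0.543 per kilobase, against 0.316 over all genes. Beyond 1000 bp it was 1.26, against 0.316, from 5 summits in the 3.98 kb that only the longest of these genes have. Top 1000 summits, in contrast, were fewer with each stretch into the gene, at 0.41, 0.385, 0.0987 and 0 per kilobase in the pooled list and 0.359, 0.275, 0.0987 and 0 in replicate 1. In replicate 2 they were at 0.308, 0.44, 0.0987 and 0.502, so that order was not shared by both replicates. Over all protein-coding genes the pooled top 1000 densities of these 4 stretches were 0.0198, 0.0222, 0.0138 and 0.0106.

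**Figure D3:**
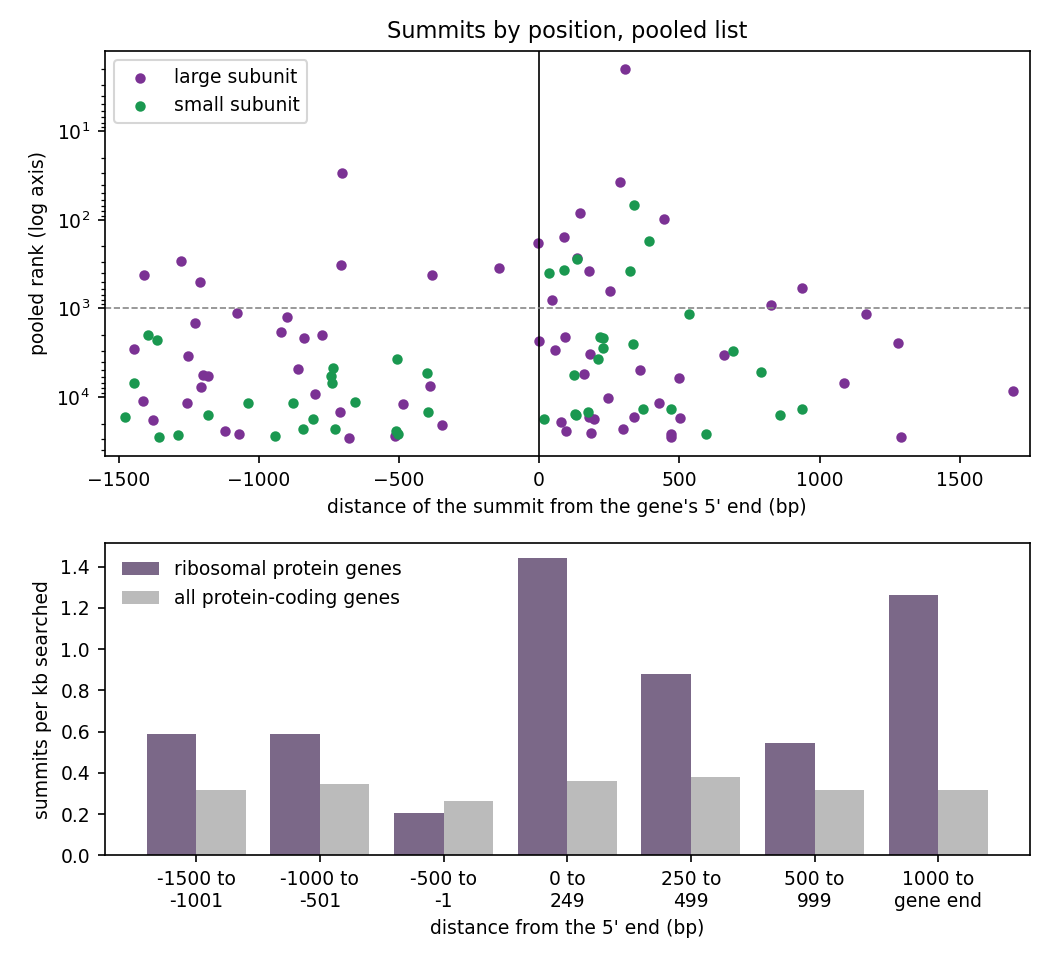
Upper panel: pooled-list summits of the 78 genes by distance from the gene's 5′ end in bp (negative is upstream) and pooled rank on an inverted log axis, coloured by subunit, with the dashed line at rank 1000. Lower panel: summits per kilobase searched in each stretch for these genes and for all protein-coding genes. The first 250 bp of the gene reach 1.44 per kilobase, the 500 bp before it 0.205, and the last stretch 1.26 from only 3.98 kb.

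Coding exons carried most of the internal summits. Of the 60 pooled summits inside the genes, 44 were in coding exons, 11 in introns, 4 in a 3′ UTR and 1 in a 5′ UTR, while coding exons make up 61.3% of the gene sequence. Of the 17 in the top 1000, 13 were in coding exons and 4 in introns. Base composition moved with this. Median GC content over the 101 bases at the best summit was 50.5% for the 18 top 1000 genes, 39.6% for all top 1000 pooled regions and 34.7% for all 30000. Where the summit was in a coding exon, it was 51% for the 12 such genes (range 44.6% to 58.4%) and 44.6% for the 503 top 1000 regions of that kind. The part of GC content in the ranks was not tested.

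The TAATTA palindrome was absent from the windows of the 18 genes in the top 1000. It was present in 4.2% of top 1000 pooled regions and in 2.19% of those with a coding exon summit. At such shares a set of 18 windows may well hold none. Over the 60 distinct best regions of the genes with any pooled summit, 5 windows (8.33%) held it, against 5.39% of the 30000 pooled regions. The core TAAT, searched on both strands and contained in TAATTA, was in 5 of the 18 windows (27.8%) and in 56.6% of top 1000 regions. In coding exons alone it was in 2 of 12 windows and in 40.6% of 503. These matches describe letters in short windows and bear on no binding event.

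Several summits stood at the same gene in 4 cases. Of the 78 genes, rpl-31, rpl-7, rpl-3 and rpl-1 had at least 2 summits in the pooled top 1000 (5.13%, interval 1.41 to 12.6), against 0.501% of all protein-coding genes. At rpl-31 the other one lay at -1278 bp, inside sac-2, at pooled rank 290, 554 in replicate 1 and 404 in replicate 2. At rpl-7 a summit 938 bp into the gene, in an intron, had pooled rank 595 and stood at 256 in replicate 1 and 1053 in replicate 2. Another 47 bp into the gene had pooled rank 814 and stood at 3756 in replicate 1 and 718 in replicate 2. At rpl-1 there were 4, at ranks 158, 423, 500 and 919. Those of ranks 423 and 500, at -1410 and -1209 bp, were in overlapping regions inside the upstream neighbour Y71F9AL.9. Their counterparts in replicate 1 stood at 4440 and 1875, and replicate 2 had a single summit there, at 1206. The summit of rank 919 stood at 11469 in replicate 1 and 534 in replicate 2.

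At rpl-3 the replicates shared the exon summit but not the rank of the upstream one. The exon summit printed above was among the top 100 of both replicates. The summit at -706 bp, between genes, had pooled rank 324, and stood at 17 in replicate 2 (signal 79.5) but at 25112 in replicate 1 (signal 23.5, where the weakest listed region has 21.8). That upstream region was thus strong in replicate 2 and near the end of the list in replicate 1.

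**Figure D4:**
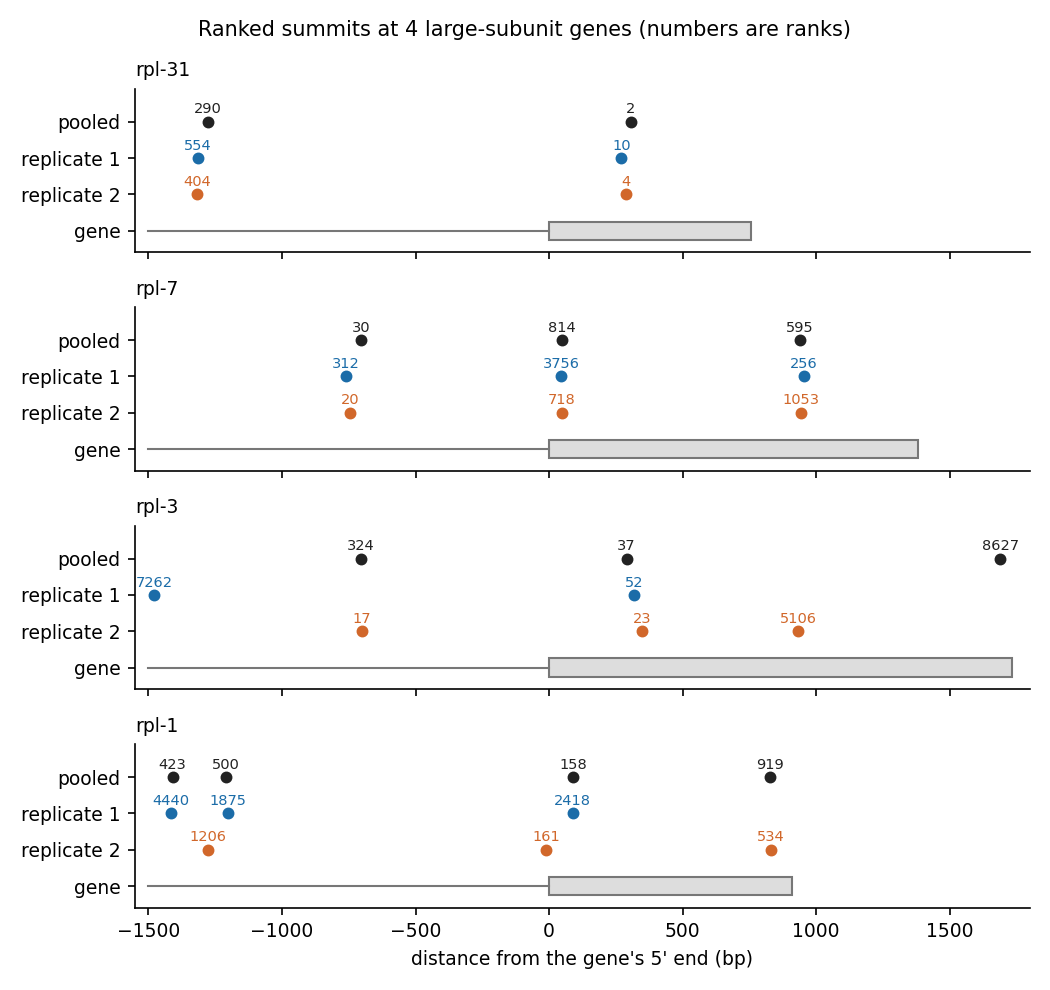
Summits of ranks 1 to 10000 at rpl-31, rpl-7, rpl-3 and rpl-1 by distance from the gene's 5′ end in bp, in the pooled list and each replicate; numbers are ranks within the list and the grey box is the gene. The summit inside rpl-31 stands at 2, 10 and 4, and the one before rpl-3 at 324 and 17, with that of replicate 1 beyond the ranks drawn.

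Read separately, replicate 1 had a top 1000 region for 17 of the 78 genes (21.8%, against 5.62% of all genes) and replicate 2 for 22 (28.2%, against 5.54%). Within as many top regions as the IDR list holds, there were 4 genes in replicate 1 (5.13%, against 1.18%) and 8 in replicate 2 (10.3%, against 1.12%). The 4 of replicate 1 were rpl-31, rpl-21, rpl-3 and rpl-9. The 8 of replicate 2 were rpl-31, rpl-3, rpl-7, rpl-22, rps-23, rpl-28, rps-6 and rpl-1, so rpl-31 and rpl-3 were in both, or 2.56% of the genes against 0.24% of all genes. Both replicate lists therefore placed these genes high more often than genes in general, through partly different members.

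In the top 1000 of both replicates stood 9 genes (11.5%, against 1.74% of all genes), namely rpl-31, rpl-3, rpl-7, rps-17, rpl-10, rpl-12, rps-29, rpl-28 and rps-5. At rps-5 the regions were not the same. The best summit of replicate 1 (rank 611) was 399 bp into the gene, that of replicate 2 (rank 685) at -830 bp, and the best pooled rank was 4690. Of the 18 regions behind the pooled top 1000, all had a summit within 200 bp in each replicate list, 8 were in the top 1000 of both, 5 of replicate 2 only, 4 of replicate 1 only and 1, that of rps-25, of neither (1182 and 2364). The same was not counted over all top 1000 pooled regions, so whether these shares are usual is not known.

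Some of the highest single-replicate ranks had no counterpart in the other replicate, or only one far down its list. At rpl-22, replicate 2 had a summit at rank 54 in a coding exon 342 bp from the 5′ end, replicate 1 listed none inside the gene, and the pooled summit there had rank 4904. At rps-23, which encodes a protein of the decoding centre, replicate 2 had rank 78 in an intron, beside the snoRNA gene F28D1.13, and replicate 1 had no summit in the gene or upstream. At rpl-4 the region of rank 225 in replicate 2 stood at 29357 in replicate 1. In the other direction, rpl-9 stood at 130 in replicate 1 and 3589 in replicate 2, and rps-19 at 399 against 26161, where the replicate 2 summit was upstream. With 2 replicates, neither list can be preferred.

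Over the 52 genes with a summit in both replicate lists, Spearman's rho of the best ranks was 0.312. It was 0.354 over the 11207 protein-coding genes with one in both. Both are correlations across genes of the same pair of libraries, given without a test. The best summits of the replicates lay within 200 bp of each other for 24 of the 52 genes (46.2%), against 39.4% of all genes. The better rank was that of replicate 2 for 30 genes and of replicate 1 for 22. The ranks were within 2-fold of each other for 15 genes and more than 10-fold apart for 16. These counts of better rank and of fold were not made over all genes. By the correlation, the order of these genes was shared between the replicates only in part. The extent was about that seen over all genes.

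**Figure D5:**
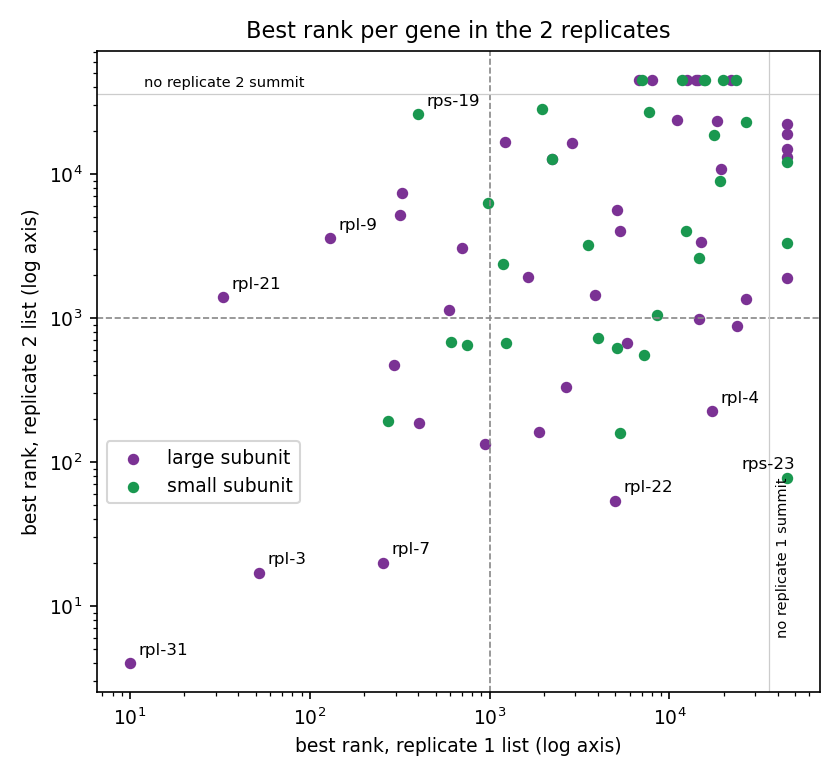
Best rank of each gene in the replicate 1 list (horizontal) and the replicate 2 list (vertical), both on log axes, coloured by subunit; genes without a summit in a list are drawn beyond the thin grey line, those without one in either are not drawn, and dashed lines mark rank 1000. The lower left field holds the 9 genes in the top 1000 of both, led by rpl-31 at 10 and 4.

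No summit lay in the gene or upstream of 6 genes in any of the 3 lists, which were rpl-18, rpl-25.1, rpl-36, rpl-41.1, rpl-41.2 and rps-14. Another 11 had one in a replicate list only, none better than rank 3370. How many of all genes lack a summit in all 3 lists was not counted. Absence from a list of 30000 regions does not mean a signal of 0. The coding sequences of rpl-41.1 and rpl-41.2 are 98.5% identical over 66 bases, and how the authors treated reads that map to both is not given in the sources used here, so these values are uncertain. The copies rpl-11.1 and rpl-11.2 are 84.4% identical. The first had no pooled summit and the second had one at rank 24242. Of the pair rpl-25.1 and rpl-25.2 (71.5% identical), the second had pooled rank 11766.

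The snoRNAs guide chemical modification of ribosomal RNA. An annotated snoRNA gene lay within 13 of the 78 genes, and 3 of those 13 had a pooled top 1000 region, as did 15 of the 65 without. Among the 18 best regions in the top 1000, 1 had a snoRNA gene within 200 bp of its summit, B0412.6 in rps-29. Of the 61 genes with a pooled summit 5 did, the others being rps-23, rpl-15, rpl-6 and rpl-7A, at pooled ranks 1146, 2111, 2472 and 22845. The share of all pooled regions that lie near a snoRNA gene was not counted, so these counts do not set the ribosomal protein genes apart.

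There are 6 further genes of the cytosolic ribosome with other symbols. Among them ubl-1, which encodes a small-subunit protein fused to a ubiquitin-like domain, had an IDR peak at pooled rank 55, in the gene 898 bp from its 5′ end, and its best ranks were 233 in replicate 1 and 117 in replicate 2. The acidic stalk gene rla-0 had pooled rank 211, inside the gene, while its best summits in the replicates lay upstream, at ranks 218 and 6333. The others were at pooled ranks 1347 (ubq-2, a ubiquitin fusion of the large subunit), 2861 (rla-1), 3467 (rack-1, a scaffold on the small subunit) and 27226 (rla-2). The replication genes rpa-1 and rpa-2 had best pooled ranks of 8672 and 2299. Both stood higher in replicate 1, at 473 and 347, and had no summit in replicate 2.

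Genes that make or use ribosomes were read in the same way. A pooled top 1000 region was present for 9 of 70 mitochondrial ribosomal protein genes (12.9%, exact interval 6.05 to 23), which serve the organelle's own translation. Inside the gene 2 of the 70 had one (2.86%, interval 0.348 to 9.94), against 15 of 78 cytosolic genes (19.2%, interval 11.2 to 29.7). Over all protein-coding genes the share inside the gene was 3.72%, so the mitochondrial share was near that of genes in general. The intervals of the mitochondrial and cytosolic genes do not overlap, and the difference was not tested. Of the 70, 1 was in the top 1000 of both replicates (1.43%, against 1.74% of all genes). Initiation and elongation factors had 7 of 38 (18.4%, interval 7.74 to 34.3). An IDR peak was present for 3 of these 38 (7.89%, interval 1.66 to 21.4), against 1.25% of all genes. Ribosome assembly and nucleolar genes had 8 of 28 (28.6%, interval 13.2 to 48.7). Of these 28, 4 had one inside the gene (14.3%, against 3.72% of all genes). An IDR peak was present for 3 of the 28 (10.7%, against 1.25%). RNA polymerase I subunits, which serve the transcription of ribosomal RNA, had 1 of 6. For the gene and upstream sequence together, the pooled top 1000 share of each list was above the 5.65% of all genes. The interval for the 6 polymerase subunits includes that value. On this count all the intervals overlapped that of the cytosolic ribosomal protein genes.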

How the data were processed

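ChIP-seq regions from 2 biological replicates of whole L1 larvae were read as deposited. Per the text files deposited beside them, 30000 regions each were listed from the alignments of either replicate and of both pooled, against a control, and the IDR peaks were derived from these 3 lists. What aligner, peak caller, settings and IDR threshold were used is not given in the sources used here. The deposited signal values of the authors rank regions within a list. Read depth is unknown, and intervals (Clopper-Pearson, 95%) cover the counting of genes only. All regions lay within the WBcel235 chromosome lengths (ce11 per the labels).

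Genes came from Ensembl release 115. A region was assigned by its summit to every gene whose span, or the 1500 bp upstream of its 5′ end, held it. Regions of different lists were matched within 200 bp. Named are genes with an IDR peak, the 15 of best pooled rank, the 5 best of each replicate, the rpa genes and those without summits. Other genes singled out, such as rps-5 and rps-19, were chosen after their values were seen. The members and gene lists were chosen with earlier results of these data known, so no test was made of them. The assignment was tested on simulated data. Alternatives covered the upstream distance, the rank limit, the assignment to the nearest gene and each replicate alone; gene sets with rpa-1 and rpa-2, or with rla and ubiquitin fusion genes, were added after seeing the data. Python 3.11.15, numpy 2.4.6, pandas 2.3.3, scipy 1.17.1, Biopython 1.88 and matplotlib 3.10.9 were used.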

Additional observations from a re-analysis of the deposited data

How the results depend on the processing

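The count of 9 genes with an IDR peak lay between 7 and 12 under other windows and when summits nearest another gene were left out, was 5 with the 91 strongest IDR peaks, and was 4 in replicate 1 and 8 in replicate 2 when as many of a replicate's top regions stood in for the IDR list. The 18 genes in the pooled top 1000 stayed 18 with 500 bp upstream (against 4.13% of all genes). They became 15 with the gene only (against 3.72%) and 24 with 3000 bp (against 7.04%), and were 18 without summits nearest another gene (against 3.57%). There were 17 and 22 in the replicates (against 5.62% and 5.54%), 17 at a rank limit of 500 (against 3.13%) and 33 at 3000 (against 14.1%). The median best rank followed the window. It was 11842.5 with 500 bp upstream, 16259.0 with the gene only, 2869.0 with 3000 bp, and 14097.5 without summits nearest another gene, where all protein-coding genes had 23345.0, 27874.0, 12389.0 and 23262.0, and it was 5409.5 to 7446.0 in single replicates. The difference between subunits changed sign with the gene only (-0.206 percentage points), with 3000 bp (-2.47) and between the replicates (-1.37 to 9.4); the cause was not tested. The share of genes with the best summit inside was 45.1% with 3000 bp upstream and 82% without summits nearest another gene. The shares of all genes under these settings were not counted. In single replicates it was 60% to 62.5%, against 60.5% to 62.7% of all genes, and with rla and ubiquitin fusion genes 62.1%. The 9 genes in the top 1000 of both replicates became 6 at a limit of 500 and 16 at 3000. For this count and for the IDR peaks, the shares of all genes under other windows or limits were not counted. Adding rpa-1 and rpa-2 left the counts at 9, 18 and 9. No paired analysis was possible because there is 1 group. Read depth is unknown, so no limit from depth can be given.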

Other observations

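The 78 genes are spread over all 6 nuclear chromosomes, and 5 of the 9 with an IDR peak are on chromosome I, which holds 23 of the genes (21.7%, exact interval 7.46 to 43.7). By the pooled top 1000 the shares were 6 of 23 on chromosome I (26.1%), 2 of 10 on chromosome II, 6 of 18 on chromosome III (33.3%), 3 of 17 on chromosome IV (17.6%), 1 of 8 on chromosome V and 0 of 2 on X. The intervals of these shares overlap, and the chromosomes were not compared by a test. The share of all protein-coding genes called on each chromosome was not counted.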
